A study of Homo sapiens with 2 samples.

Results

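The binding of GATA2 was examined at 8 genes known as androgen-induced, FKBP5, NDRG1, PMEPA1, STEAP4, ELL2, ZBTB16, HPGD and PDE9A, in LNCaP cells. Peaks of GATA2 chromatin immunoprecipitation followed by sequencing (ChIP-seq) were assigned to a gene when their midpoint lay in its body or in the 0.1 Mb on either side, in hg19 coordinates. The 8 windows together held 43 of the 36797 peaks of the series, or 0.117%. Both samples were GATA2 immunoprecipitations from LNCaP, a human prostate cancer cell line that responds to androgen, at passages 32 to 34. They form 1 group of 2 biological replicates, and no input or androgen-treated sample was analysed here. All cells were grown with 10% fetal bovine serum and then spent 3 days in 5% serum treated with charcoal, which removes steroid hormones, and the labels name no added hormone. Expression was not measured, so the label androgen-induced is background and could not be checked in these cells. The deposited data are 1 list of peaks with no value for either replicate and no read count. The depth behind each peak is therefore unknown, no replicate error or test can be given, and every number below is a description of this list.

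GATA2 is a zinc-finger transcription factor that binds short DNA words built on GATA. In prostate cells it is known to occupy enhancers of androgen-responsive genes together with the forkhead factor FOXA1. The genes examined take part in several of the responses that follow. FKBP5 encodes an immunophilin co-chaperone of HSP90 that binds steroid receptor complexes and takes part in feedback on them, and PMEPA1 encodes a membrane protein that dampens TGF-beta signalling. NDRG1 is a stress-responsive gene induced by hypoxia and differentiation. STEAP4 is a metalloreductase, HPGD degrades prostaglandins and PDE9A degrades cyclic GMP. ELL2 is a transcription elongation factor, and ZBTB16 encodes the zinc-finger repressor PLZF.

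GATA2 peaks were found in the windows of all 8 genes, but very unevenly. ZBTB16 had 11, HPGD 7, STEAP4 and ELL2 6 each, PDE9A 5, NDRG1 4, PMEPA1 3 and FKBP5 1. Over the 2.37 Mb of windows there were 18.1 peaks per Mb, against 12.8 per Mb over the usable length of the genome, a ratio of 1.42. Windows around other genes were not counted, so the ratio is not shown to be particular to these genes. Peak density was above that of the list in 6 genes and below it in PMEPA1 and FKBP5. HPGD and ZBTB16 were the densest, with 29.2 and 28.2 peaks per Mb, and FKBP5 the sparsest with 2.78 per Mb. This order depended on the flank: with 0.05 Mb HPGD had 21.4 per Mb, below ZBTB16 (37.9), STEAP4 (28.6) and ELL2 (27.8). PMEPA1 then had 17.6 per Mb, above the density of the list. With 0.2 Mb FKBP5 had 10.7 per Mb, and PMEPA1 was the sparsest with 8.51. Without the ZBTB16 window the other 7 windows held 16.2 peaks per Mb, and the ratio was 1.26.

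**Figure D1:**
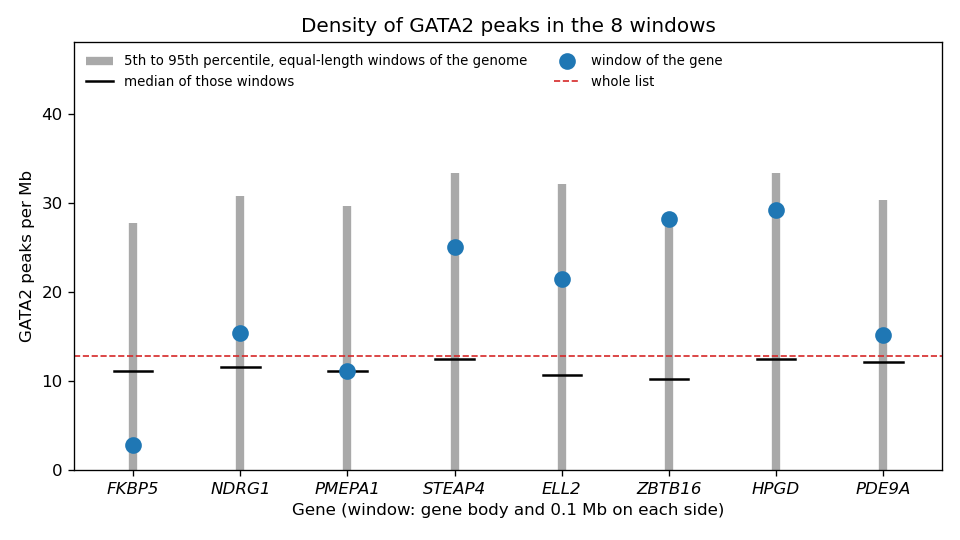
GATA2 peaks per Mb (vertical axis) in the window of each gene (blue points), with the 5th to 95th percentile (grey bars) and the median (black lines) of all equal-length windows laid end to end along the genome, and the density of the whole list (dashed line). FKBP5 lies at 2.78 peaks per Mb, while HPGD and ZBTB16 lie at 29.2 and 28.2.

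The counts were set beside those in all windows of the same length laid end to end along the chromosomes, without regard to genes. At least 11 peaks, as at ZBTB16, were found in 6.49% of windows of 0.39 Mb. HPGD held at least as many peaks as 94.9% of windows of 0.24 Mb, and 9.02% of those windows held 7 or more. For STEAP4, 15.2% of windows of its length held 6 or more, and for ELL2 20.8% did. These 4 genes thus lay in the upper part of a broad range, and none was outside what the genome shows elsewhere. The counts at PDE9A and NDRG1 were ordinary, since 39.7% of windows of 0.33 Mb held at least 5 peaks and 40.1% of windows of 0.26 Mb held at least 4. At PMEPA1 the count of 3 equalled the median, and 57.4% of windows of 0.27 Mb held at least that many. FKBP5 lay at the other end: 93.1% of windows of 0.36 Mb held at least 1 peak, and 17.4% held 1 or none.

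The authors' peak score is the peak caller's own value, without a stated unit, and serves here only to rank peaks within the list. It ran from 80.3 to 1161 over the 43 peaks, with a median of 222 (exact binomial 95% interval 162 to 349), and the median of all 36797 peaks was 212. The lowest score in the whole list was 80.01, so the score of 80.3 lies at the lower limit of the list. Of the 43, 22 scored at or above the median of the list, against 50% of all peaks. The best-scoring 25% of the list contributed 13, or 30.2% of them (Clopper-Pearson 95% interval 17.2% to 46.1%). The best-scoring 10.0%, with scores from 687 upward, contributed 5, or 11.6% (interval 3.89% to 25.1%). These intervals cover counting error only and treat peaks that share a window as independent. They include the share over the whole list in each case. No difference in score from the list was seen, but intervals this wide could miss a difference. The 5 best were at ZBTB16 (2 peaks), PMEPA1, HPGD and STEAP4. FKBP5, ELL2, NDRG1 and PDE9A had none.

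**Figure D2:**
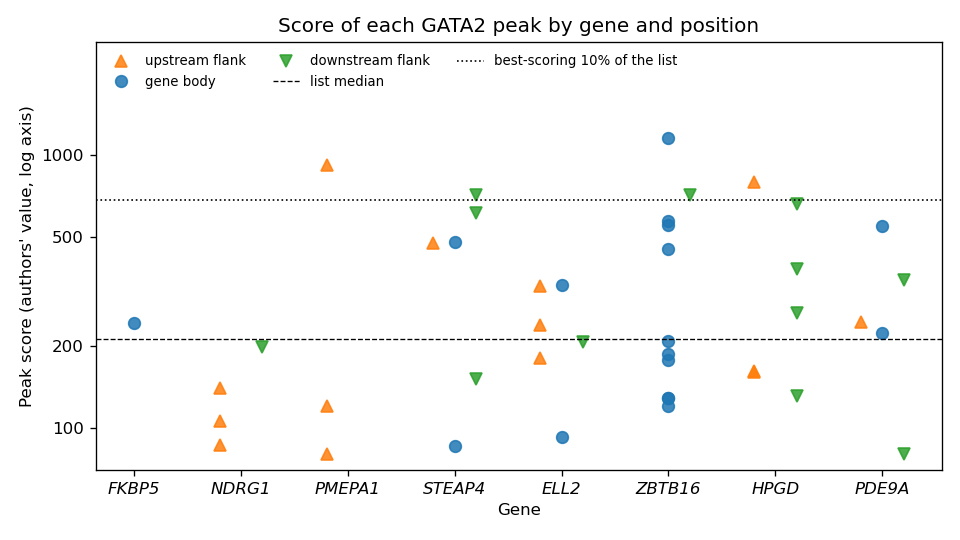
Score of each of the 43 GATA2 peaks (vertical log axis, the authors' value) by gene, with the symbol giving its place upstream of, within or downstream of the gene body. The dashed line is the list median of 212 and the dotted line the limit of its best-scoring 10%, 687. All 4 NDRG1 peaks lie under the dashed line, and 5 peaks of 4 genes lie above the dotted line.

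Peaks were not farther from the start of a gene than the windows as a whole. The ends of each gene body are known here to about 0.01 Mb, and distances are from the rounded 5′ end. Other transcript starts of a gene were not used, and a peak can lie nearer to such a start. The median distance over the 43 peaks was 58.0 kb and the longest 229 kb, and the median over all positions of the windows was 74.0 kb. Within 50 kb of a 5′ end were 19 peaks, or 44.2%, on 33.8% of the length. The closest was at ELL2, with the centre 1.80 kb upstream of the rounded 5′ end. This is less than the rounding, so the side on which it lies is not known. In the other 7 genes the nearest peak centre was more than 18 kb from the rounded end, a limit chosen after the distances were seen. At ZBTB16, STEAP4, PDE9A and PMEPA1 it exceeded this limit by less than the rounding, so the count of 7 is not firm. A centre within 18 kb was also lacking at 66.6% of all positions on the usable length of the genome. The starts of other genes were not examined, so whether these 7 differ from them cannot be said. The nearest centre was 18.7 kb away at ZBTB16, 20.8 kb at STEAP4, 22.2 kb at PDE9A and 23.5 kb at PMEPA1. It was 29.2 kb away at NDRG1, 32.8 kb at HPGD and 81.0 kb at FKBP5. Distance and score were almost unrelated across the 43 peaks (Spearman's rho 0.11; peaks of 1 gene share a window and are not independent).

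**Figure D3:**
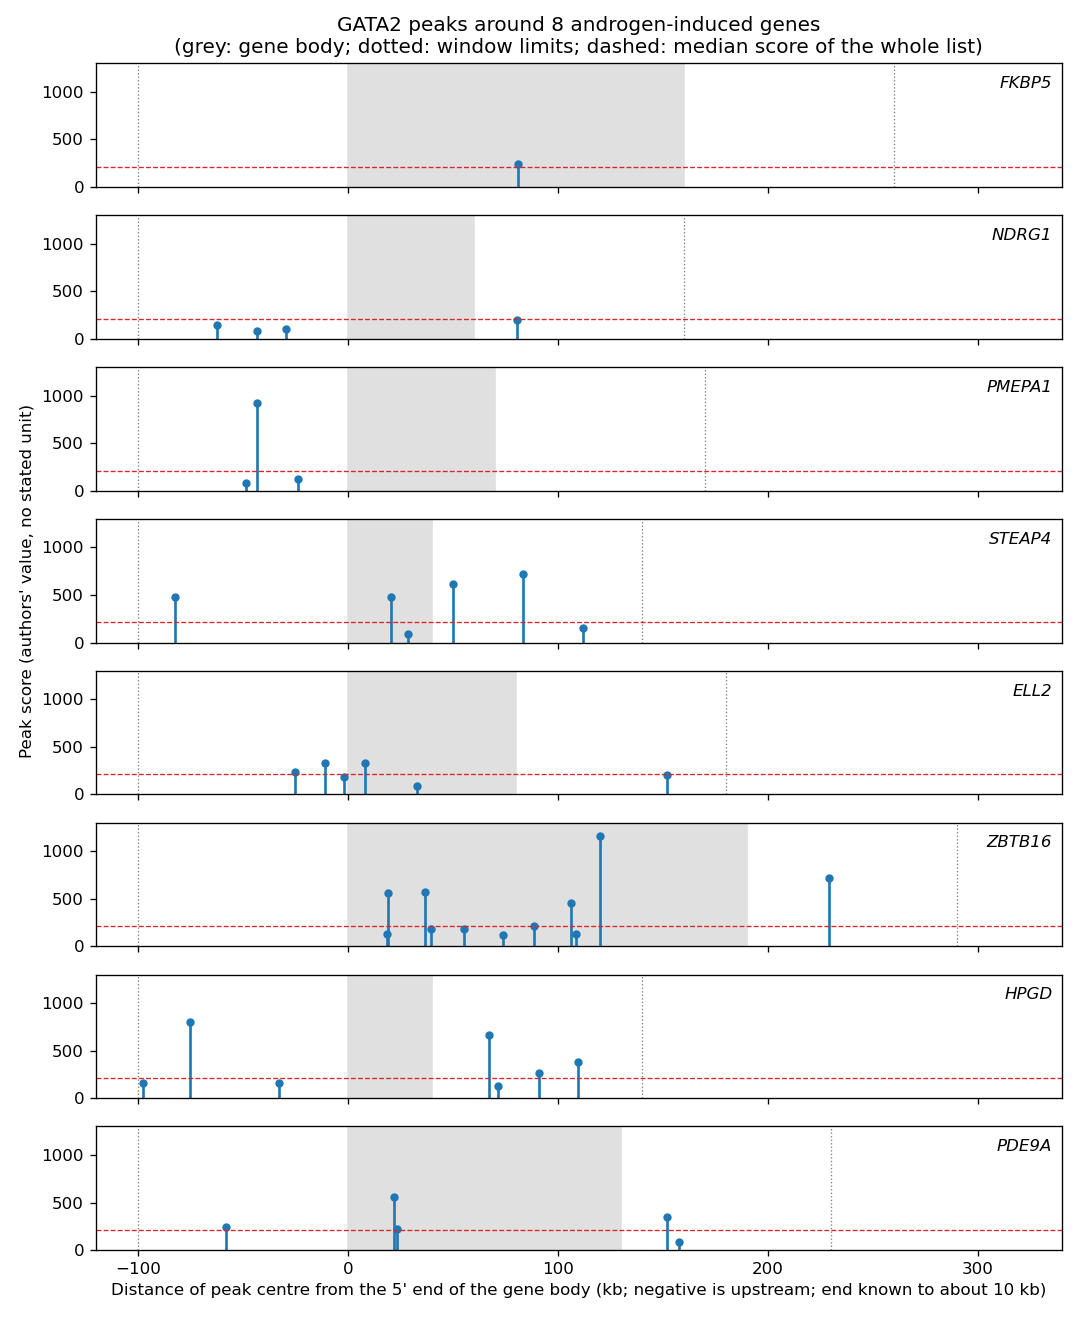
Score of each GATA2 peak (vertical axis) against the distance of its centre from the 5′ end of the gene body in kb (horizontal axis, negative upstream), 1 panel per gene. The gene body is grey, the window limits are dotted and the dashed line is the list median of 212. ZBTB16 has 10 of 11 peaks in the grey area, while HPGD, NDRG1 and PMEPA1 have none there. That area is 48.7% of the window at ZBTB16, and 16.7%, 23.1% and 25.9% at HPGD, NDRG1 and PMEPA1.

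The promoters are shown for the 2 genes in which a RefSeq promoter held a GATA word: FKBP5, with 1 peak, and PMEPA1, with peaks only upstream of its body. The sequences are from RefSeq on GRCh38.p14, whose positions cannot be set beside the hg19 peaks, and each runs 5′ to 3′ from 250 bases before to 50 after a transcript start on the minus strand. Capitals mark a match on either strand to the word AGATAA, the word AGATAG, the word TGATAA or the word TGATAG. The first FKBP5 sequence (chr6:35728534-35728833) belongs to the more upstream of 2 listed starts and the second (chr6:35688866-35689165) to the other. The PMEPA1 sequence (chr20:57690637-57690936) is the most downstream of 4 listed starts.
FKBP5 upstream start: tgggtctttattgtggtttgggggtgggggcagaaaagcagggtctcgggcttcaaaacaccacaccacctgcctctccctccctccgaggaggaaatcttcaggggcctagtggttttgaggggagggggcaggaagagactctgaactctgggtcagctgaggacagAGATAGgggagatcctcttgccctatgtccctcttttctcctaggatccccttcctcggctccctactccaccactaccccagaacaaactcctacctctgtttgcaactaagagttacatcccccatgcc
FKBP5 downstream start: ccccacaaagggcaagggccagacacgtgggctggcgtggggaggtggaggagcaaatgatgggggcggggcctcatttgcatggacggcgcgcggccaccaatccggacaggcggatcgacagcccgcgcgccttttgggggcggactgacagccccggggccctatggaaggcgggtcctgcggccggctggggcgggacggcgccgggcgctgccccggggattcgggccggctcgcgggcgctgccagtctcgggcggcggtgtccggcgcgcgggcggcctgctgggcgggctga
PMEPA1 downstream start: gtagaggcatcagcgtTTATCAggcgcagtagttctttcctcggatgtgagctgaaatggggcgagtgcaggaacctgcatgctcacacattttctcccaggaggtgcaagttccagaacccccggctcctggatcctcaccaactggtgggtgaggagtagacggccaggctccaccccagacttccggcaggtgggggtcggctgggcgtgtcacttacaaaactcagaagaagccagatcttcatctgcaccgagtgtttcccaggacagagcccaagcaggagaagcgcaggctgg
The upstream FKBP5 promoter holds 1 GATA word, AGATAG, and the downstream one, with 76.0% G and C, holds none. The PMEPA1 promoter holds 1, TGATAA on the opposite strand, printed as TTATCA. RefSeq promoters were matched for 4 of the 8 genes (FKBP5, PMEPA1, STEAP4 and HPGD), as 9 sequences, and 2 of the 9 held a GATA word. Of all 35116 promoters in the table, 24.97% did. The forkhead words TGTTTAC and TGTTTGC, searched the same way, were in 2 of the 9 and in 7.17% of all promoters. A match is a run of letters and not a shown site.

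By position, 17 of the 43 peaks lay in gene bodies, 14 in the flank upstream of the gene and 12 in the flank downstream. Gene bodies held 39.5% of the peaks (Clopper-Pearson 95% interval 24.98% to 55.6%) on 32.5% of the length. This share came mainly from ZBTB16: without its window, 7 of 32 peaks, or 21.9% (interval 9.28% to 39.97%), lay in gene bodies, which made up 29.3% of the remaining length. The upstream flanks held 17.5 peaks per Mb and the downstream flanks 15.0. The median score was 171 upstream, 222 in gene bodies and 306 downstream, within ranges that overlapped almost fully (80.3 to 926, 85.9 to 1161 and 80.3 to 719). Only 2 peaks, both at ELL2, lay within 10 kb of a rounded end of a gene body and so could change place.

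FKBP5, the steroid receptor co-chaperone, had a single GATA2 peak. It lay inside the gene body at chr6:35618812-35619156, was 345 bp wide and scored 242, a score that 44.1% of the list reaches. The nearest other peak centre was 183 kb away. On the upstream side of the gene the next centre was 331 kb away, a distance that 3.24% of successive peaks in the list reach or exceed. That share counts each distance equally, while a fixed place falls more often in a long stretch. It therefore understates how often a gene would lie in such a stretch. On the downstream side the next peak, at chr6:35435944-35436308, scored 369 and lay 3.87 kb beyond the window, which was the nearest miss of any gene. The peak closest to a limit from inside was at HPGD, 2.35 kb from it, with a score of 162.

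PMEPA1, the feedback inhibitor of TGF-beta signalling, had 3 peaks, all upstream of the gene at 23.5 to 48.4 kb from its 5′ end. The middle one, at chr20:56332798-56333346, was 549 bp wide and scored 926, which placed it in the best-scoring 4.76% of the list, 43.1 kb from the 5′ end. The other 2 scored 120 and 80.3, and 99.7% of the list scores at least as high as the second of them. PMEPA1 was thus a gene with 1 high-scoring upstream peak and 2 weak ones. No peak lay in its body, which was 25.9% of the window, or in its downstream flank. The longest stretch without a centre measured 260 kb and ran past the downstream limit to a peak outside the window. Its part inside the window measured 194 kb.

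NDRG1, the stress gene, had 4 peaks, and it was the only gene whose peaks all scored below the median of the list. The highest, downstream of the gene at chr8:134229522-134229822, scored 198. The 3 upstream peaks scored 106, 86.4 and 141 at 29.2, 43.1 and 62.4 kb from the 5′ end. The gene body, 23.1% of the window, held none. Just outside the window were peaks with scores of 436 and 492, 25.5 kb below and 10.02 kb above its limits. ST3GAL1 is the next protein-coding gene on the upstream side and CCN4 on the downstream side.

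ZBTB16 carried the most peaks, and 10 of its 11 lay in the gene body, at 52.6 per Mb of body. Its gene body spans about 0.19 Mb, the longest of the 8. The highest-scoring peak of the whole set, at chr11:114049828-114050383, was 556 bp wide, scored 1161 and lay 120 kb downstream of the 5′ end. Only 2.07% of the list scored as high. It closed a run of 3 peaks over 14.3 kb (114036068 to 114050383), with scores of 455, 128 and 1161. Nearer the 5′ end, peaks at chr11:113949113-113949560 and chr11:113966532-113966998 scored 556 and 575. The other body peaks scored from 120 to 209. The 1 peak outside the body, 229 kb from the 5′ end and beyond the 3′ end, scored 719. NNMT is the next protein-coding gene on that side.

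HPGD, which inactivates prostaglandins, showed the reverse arrangement. None of its 7 peaks lay in the gene body, of about 0.04 Mb, and they were divided between the flanks, 3 upstream and 4 downstream. Body sequence made up 16.7% of this window, so few body peaks could be looked for. The highest, at chr4:175525142-175525551 and 75.3 kb upstream, was 410 bp wide and scored 802. The highest on the downstream side, at chr4:175382581-175383047, scored 662. The remaining 5 scored between 131 and 384. The peaks on the 2 sides of the gene were 99.96 kb apart at the nearest, by their centres.

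STEAP4, a metalloreductase gene, had the highest median score among the 8 genes, 478 over 6 peaks, and 4 of them were in the best-scoring 25% of the list. Its scores were 151, 718 and 614 downstream of the gene, 85.9 and 479 in the gene body, and 477 upstream. High and low scores thus occurred on both sides of the 3′ end. The best, at chr7:87856267-87856682, was 416 bp wide and lay 83.5 kb from the 5′ end. The widest of all 43 peaks, 635 bp, was the one at chr7:87889674-87890308. The peak nearest the start, at chr7:87919047-87919394, lay within the gene body at 20.8 kb. SRI is the next protein-coding gene on the downstream side and ZNF804B on the upstream side.

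ELL2, the elongation factor gene, was the only one with a peak centre within 18 kb of its rounded 5′ end. A run of 3 peaks spanned 19.4 kb (chr5:95291759-95311139) across the rounded 5′ end. The first, in the gene body 8.08 kb from that end, scored 333. The second, at chr5:95301609-95301986, scored 180, and the third, 10.97 kb upstream, scored 331. A further upstream peak 25.4 kb away scored 239. These scores were moderate, and the highest, 333, is reached by 30.9% of the list. The 2 remaining peaks were weaker, with scores of 92.8 in the body and 206 downstream. CAST is the neighbouring protein-coding gene on the upstream side, and whether the 3 upstream peaks lie in it was not examined.

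PDE9A, the cyclic GMP phosphodiesterase gene, had 5 peaks. The highest, at chr21:44091994-44092458, was 465 bp wide, scored 553 and lay in the gene body 22.2 kb from the 5′ end. A second body peak with a score of 222 lay 1.17 kb from it, one of 3 pairs in the 8 windows with centres no more than 2.5 kb apart. The other 2 pairs were at ZBTB16. The upstream peak of PDE9A scored 245, and the 2 downstream peaks scored 349 and 80.3, the last being the lowest score of all 43. Next to the gene lie SLC37A1 upstream and WDR4 downstream.

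The median width of the 43 peaks was 345 bp, with the middle 50% between 258.5 and 394 bp, and the median of the list was 293 bp. Width followed score at these genes (Spearman's rho 0.86 across 43 peaks) about as in the list (0.83), and both come from the same peak call. The 5 narrowest peaks, of 114 to 147 bp, were at PMEPA1, PDE9A, STEAP4, NDRG1 and ELL2, 1 at each, and scored between 80.3 and 92.8. The peaks covered 0.600% of the windows, against 0.397% of the usable genome. Their nearest neighbour was at a median of 13.9 kb, against 19.1 kb in the list, and 19 of the 43 had one within 10 kb, or 44.2%, against 33.2% in the list. The covered share and these distances are not independent of the peak density given above.

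**Figure D4:**
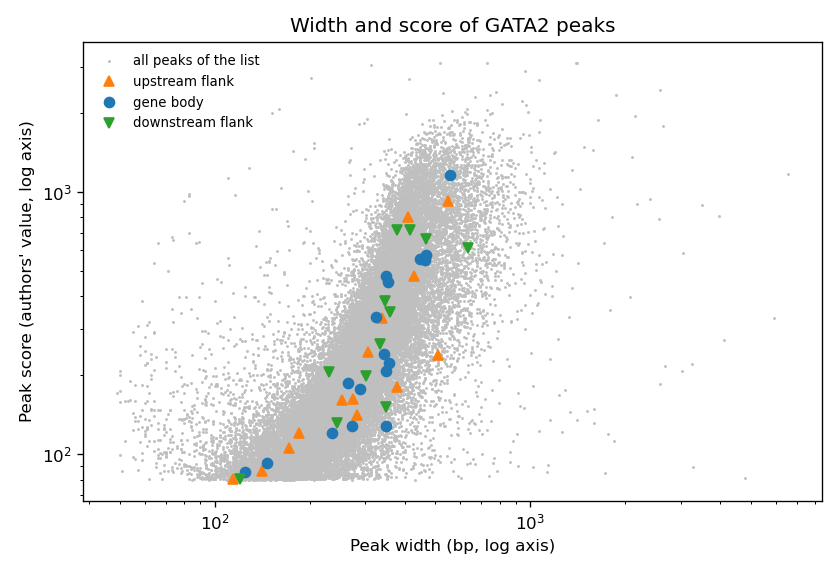
Width in bp (horizontal log axis) and score (vertical log axis, the authors' value) of all 36797 GATA2 peaks (grey dots) and of the 43 peaks at the 8 genes, by position (coloured symbols). The coloured symbols follow the grey cloud, from 114 to 635 bp in width and from 80.3 to 1161 in score.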

How the data were processed

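GATA2 ChIP-seq was deposited for 2 replicate LNCaP samples of 1 group, as 1 list of peaks. Per the submitters' processing notes, Bowtie was the aligner named and hg19 the build. MACS is named as the peak caller in the label of each deposited peak. For versions, a control library and pooling of replicates: not given in the sources used here. The deposited score of each peak is the authors' value from the peak caller. Depth is unknown, and no test was possible.

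Members were peaks with their midpoint in windows given in Mb for each gene, with strands taken from general knowledge. The members, gene lists and rules for named peaks (highest score, nearest to the 5′ end, runs of at least 3 peaks no more than 12.5 kb apart) were chosen with earlier results of these data known. The usable length, 2870 Mb, runs from first to last peak of each chromosome less peak-free stretches over 2.5 Mb. Starts are 1-based. Counting was tested on simulated lists. Neighbouring genes are by order in RefSeq on GRCh38.p14, without coordinates. Python 3.11.15, numpy 2.4.6, scipy 1.17.1 and matplotlib 3.10.9 were used. Peak sequences, motifs in peaks and other androgen-induced genes were not analysed here, since no hg19 genome or annotation was used. 1 promoter motif searched is not reported here.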

Additional observations from a re-analysis of the deposited data

How the results depend on the processing

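The ratio of peak density to that of the list, 1.42, stayed between 1.26 and 1.69 under all 14 alternatives run. The other values moved as follows, mostly by construction. With the better-scoring 50% of the list the 43 peaks became 22 and their median score 478. With the best-scoring 10% they became 5, with a median score of 802, and the share in gene bodies went from 39.5% to 20%. With flanks of 0.2 Mb there were 69 peaks and the body share was 24.6%. Leaving out each gene in turn, chosen after seeing the data, gave 32 to 42 peaks, median scores of 208 to 242 and body shares of 21.9% to 47.2%, the lowest without ZBTB16. Merging peaks under 500 bp apart, counting any overlap, and flanks of 0.05 Mb left the 4 values within 1.5 times or within their 95% intervals. Leaving out a replicate was not run, since replicates have no values of their own here. No paired analysis was possible because all samples are of 1 group. Depth is unknown, and the list holds no score below 80.01. A gene body without peaks, as at HPGD, NDRG1 and PMEPA1, is therefore not shown to be free of GATA2.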

Other observations

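Between 0.1 and 0.2 Mb from the gene bodies, just beyond the windows, there were 26 further GATA2 peaks. They made 16.2 per Mb, against 12.8 per Mb over the usable length of the genome. Their median score was 213, and 3 of them, or 11.5%, were in the best-scoring 10% of the list. FKBP5, with 1 peak in its window, had 5 just beyond it, with scores of 146 to 558. NDRG1 also had 5, with scores of 108 to 492. STEAP4 had 1, with a score of 1677, above every peak inside the 8 windows. ELL2, whose highest peak in the window scored 333, had 3, the highest with a score of 906.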
